A study of Mus musculus with 6 samples.

Results

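The genes described here sense nutrients, energy and insulin, and signal through the kinases mTOR and AMPK. They form a list of 37 symbols, and a gene was taken from the deposited table where its listed symbol equalled a member. Of the 37 members, 36 were listed among the 53445 loci of the table. The other, Tfeb, was not listed under that symbol and is described from its older symbol Tcfeb, outside the count of members. For Pik3ca, with 2 loci under its symbol, and Rps6kb1, with 3, the longest locus was used.

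RNA-Seq was performed on Lin-Sca+Kit+ (LSK) cells, the bone marrow fraction that holds blood stem cells and early progenitors, of female mice, 3 of them OgaVav-Cre and 3 wildtype. All mice were on the C57BL/6 background and about 12 weeks old by their labels, and at least 20000 sorted cells of 1 mouse went into each library. In OgaVav-Cre mice, Oga fl/fl was bred with Vav-iCre, a Cre transgene under a promoter active throughout the blood lineage, so that Oga was deleted in stem cells and in all cells that descend from them. Oga encodes the enzyme that removes the sugar O-GlcNAc from proteins. Whether the wildtype mice carried floxed alleles without Cre is not given in the sources used here. The comparison asks whether the RNA level of each nutrient sensing gene differed between LSK cells with and without OGA.

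Insulin and insulin-like growth factor bind receptor kinases, which act through the insulin receptor substrates to switch on PI3K, PDK1 and AKT. AKT keeps FOXO transcription factors out of the nucleus and restrains the TSC complex, and so frees the small GTPase RHEB to activate mTOR complex 1 (mTORC1) on the lysosome, where the Rag GTPases bring it when amino acids are present. AMPK and its activating kinase LKB1 oppose mTORC1 when energy is low. Blood stem cells are known to depend on this balance, since loss of Tsc1, of Stk11 or of several Foxo genes drives them out of quiescence. These are mostly controls of protein activity, which an RNA measurement does not see.

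Library totals were between 25190298 and 27064389 reads in the OgaVav-Cre group and between 19318056 and 21684561 reads in the wildtype group. Levels are given as CPM, reads of a gene over the reads of its library after TMM scaling, when 1 gene is compared between libraries, and as the deposited RPKM, which also divides by the length of the gene, when genes are compared with each other. Oga, listed as Mgea5, had a mean of 4.31 CPM (SD 0.299, n = 3) where it was deleted and of 139 CPM (SD 20.7, n = 3) in wildtype cells, as the labels say. The LSK marker list was detected in full. Marker sums, here and below, are CPM over library totals without TMM scaling. The 12 LSK markers summed to between 1290 and 2596 CPM with the deletion and to between 1750 and 2948 CPM without it. Likewise, 16 lineage-positive cell markers were all detected, although Ly6g held 0 reads in wildtype replicate 1. They summed to 554, 301 and 1895 CPM in the OgaVav-Cre group (replicates 1, 2 and 3) and to 665, 485 and 1010 CPM in the wildtype group. The highest library differed between these markers, being OgaVav-Cre replicate 3 for Hbb-b1 and wildtype replicate 1 for Ncr1. The 11 plasma cell markers summed to between 12342 and 101146 CPM in OgaVav-Cre libraries and to between 14167 and 56050 CPM in wildtype ones, and Ighm, Igkc and Igj alone held between 1.17 and 9.88% of the reads of a library. In bulk RNA of this kind, fewer cells of a type and less RNA per cell cannot be told apart.

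None of the 36 members passed the test for a change between genotypes. All 36 passed the filter on low counts, and 0 passed both cutoffs, set at 0.05 for the adjusted p and at 1 for the log2 fold change in either direction. The test was the quasi-likelihood test of edgeR with Benjamini-Hochberg adjustment over the 22032 loci tested, of which 0.0318% passed. DESeq2's Wald test, which called 0.52% of its loci, and limma-voom also called 0 members. At an unadjusted p below 0.05 edgeR counted 2 members, Tsc1 and Foxo4, both lower in OgaVav-Cre cells, and DESeq2 and limma-voom each counted 2. This is 5.56% of the members against 10.6% of all loci in edgeR (4.38% higher and 6.27% lower) and 6.72% in DESeq2. The members' adjusted p-values in the edgeR quasi-likelihood test with Benjamini-Hochberg adjustment ran from 0.412 to 0.999.

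The differences that were measured were small. Log2 fold changes, taken as OgaVav-Cre over wildtype, ran from -1.18 for Irs1 to 0.46 for Ddit4, with a median of -0.04 beside 0.0041 for all loci tested. For 35 of the 36 members the log2 fold change was between -0.5 and 0.5, which is 97.2% of the members, 77.6% of all loci and 94.9% of the 4018 loci whose mean CPM lay between the quartiles of the members, 34.9 and 89.9. The 95% interval of the log2 fold change stayed between -1 and 1 for 32 members, or 88.9%, against 58.3% of all loci and 93.3% of the loci of like abundance. A change of 2-fold in either direction is thus outside the interval for these 32 genes, while the interval reaches 2-fold lower for Irs1, Prkaa2 and Rragd and 2-fold higher for Ddit4. Of the members, 15 had a positive and 21 a negative log2 fold change, and 50.5% of all loci had a positive one. Under library totals alone, which moved the median of all loci by more than 0.1 to -0.11, 6 members had a positive value.

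**Figure D1:**
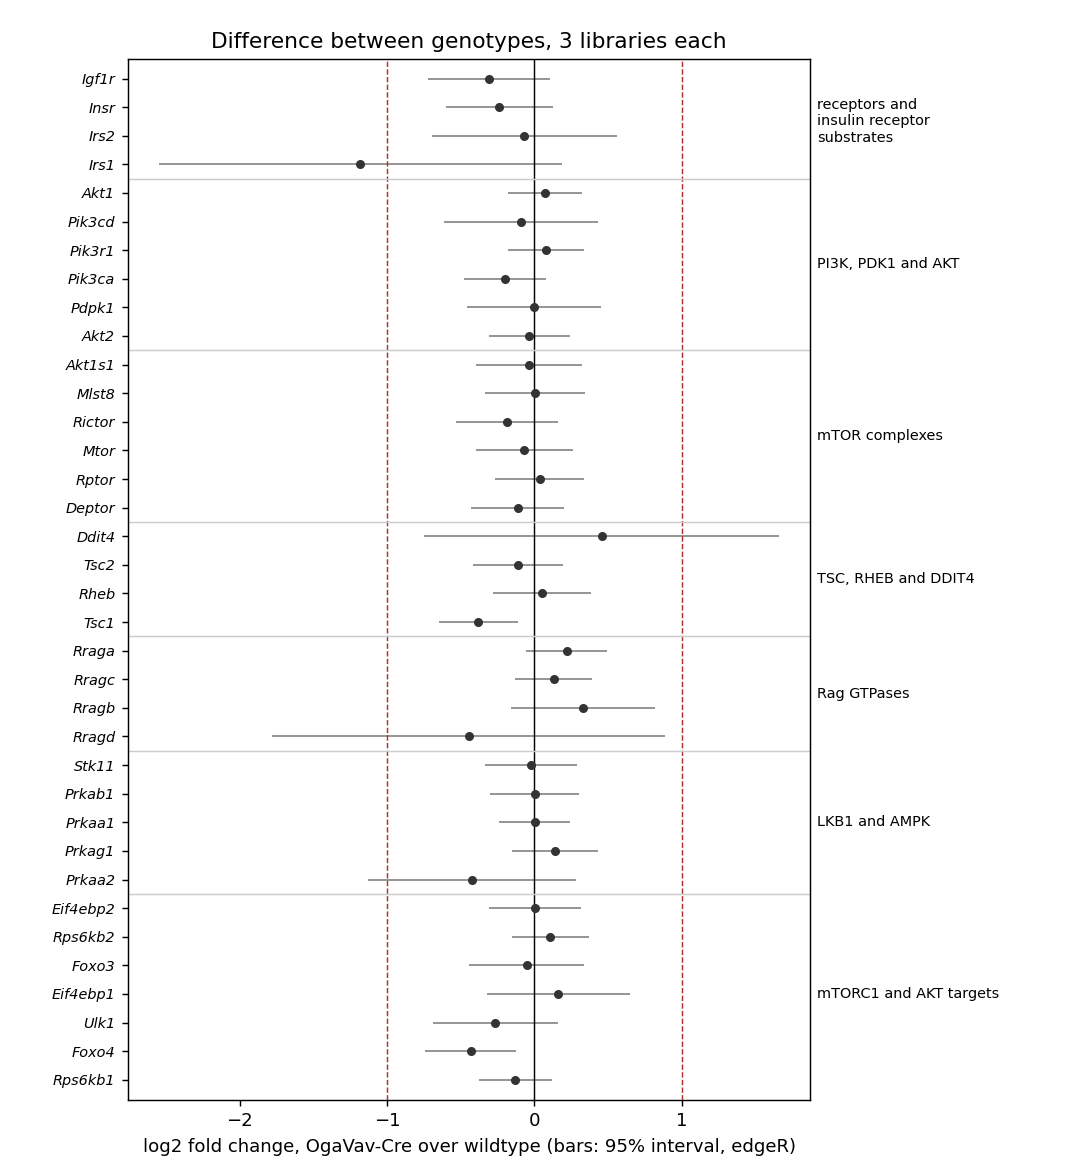
Log2 fold change of each gene, OgaVav-Cre over wildtype (x axis), with genes on the y axis grouped by role. Points are edgeR estimates from 3 libraries per genotype, bars are 95% intervals and dashed lines mark log2 fold changes of -1 and 1. The intervals of Tsc1 and Foxo4 lie below 0 and those of the other 34 members include it, with the widest at Irs1, Rragd and Ddit4.

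The libraries of both genotypes overlapped on the CPM scale for 31 members and did not overlap for 5, or 13.9%, beside 17.5% of all loci. Tsc1, Foxo4 and Pik3ca were lower in every OgaVav-Cre library than in any wildtype library, and Rraga and Prkag1 were higher. For 9.97% of all loci the OgaVav-Cre libraries were lower without overlap, and for 7.5% they were higher. Tsc1 and Foxo4 kept this separation when the libraries were scaled by their totals, by DESeq2's size factors or as the deposited RPKM. Pik3ca lost it under all 3 of these scalings, and Rraga and Prkag1 lost it under library totals and RPKM. Over all 6 libraries, the highest CPM of a member was a median of 1.36 times its lowest, against 1.79 times for all loci and 1.42 times for the loci of like abundance.

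The level of the members covered a wide range. Eif4ebp2 stood highest with a mean of 43.9 RPKM over the 6 libraries, followed by Rps6kb2 (29.6 RPKM), Akt1 (28.5 RPKM), Rraga (27.3 RPKM) and Pik3cd (24.8 RPKM). The level of Rps6kb2 may include reads of Ptprcap, which lies inside it on the opposite strand with 79.6% as many reads. Lowest were Irs1 (0.0948 RPKM), Rragd (0.602 RPKM) and Prkaa2 (0.841 RPKM), each the scarcer form of a related gene that was well detected. Mtor itself stood at 4.00 RPKM and ranked 29 of 36. Neighbors in this order often overlapped between libraries, as with Rraga and Akt1, whose RPKM ran from 24.0 to 31.1 and from 27.3 to 29.7.

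**Figure D2:**
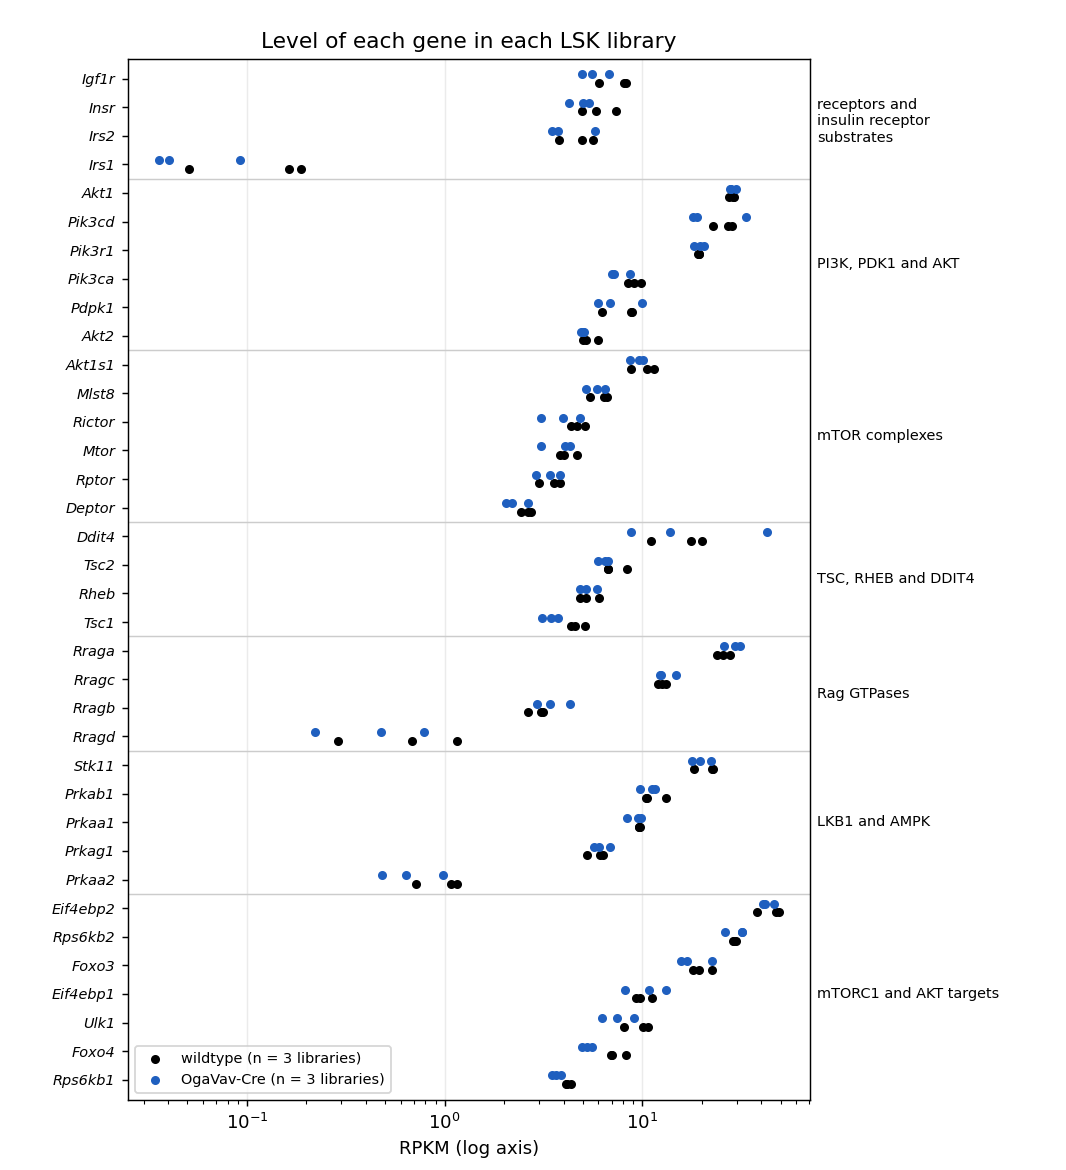
Level of each gene in each library in RPKM on a log axis (x axis), with genes on the y axis grouped by role and ordered by mean level within it. Each point is 1 library, black for the 3 wildtype and blue for the 3 OgaVav-Cre libraries. Levels run from below 0.1 RPKM for Irs1 to above 40 RPKM for Eif4ebp2, and the colors are apart only for Tsc1, Foxo4 and Rps6kb1.

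Among the receptors and their substrates, Igf1r, the receptor of insulin-like growth factor, was at 121, 135 and 97.4 CPM in the 3 OgaVav-Cre libraries (replicates 1, 2 and 3) and at 118, 166 and 154 CPM in wildtype replicates 1, 2 and 3. The wildtype library with the lowest value lay inside the OgaVav-Cre range. For Igf1r the log2 fold change was -0.31 (95% interval -0.72 to 0.11). Insr, the insulin receptor, was at 51.8, 59.6 and 54.9 CPM and at 53.3, 65.2 and 77.7 CPM in the same order, again with wildtype replicate 1 inside the range of the other genotype. Its log2 fold change was -0.24 (95% interval -0.60 to 0.12). Without wildtype replicate 1 the edgeR quasi-likelihood test gave an unadjusted p of 0.0367 for Igf1r and 0.0323 for Insr, and Benjamini-Hochberg adjusted p-values of 0.320 and 0.308. In that fit 14.5% of all loci were below an unadjusted p of 0.05. Of the 14 alternatives, Igf1r was below it in 2 and Insr in 1.

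The insulin receptor substrates are adaptor proteins that link the receptors to PI3K. Irs2 carried nearly all of their RNA in LSK cells, at a mean of 4.57 RPKM against 0.0948 RPKM for Irs1. For Irs1, OgaVav-Cre replicates 1, 2 and 3 held 12, 11 and 30 reads, and wildtype replicates 1, 2 and 3 held 41, 12 and 51. Wildtype replicate 2 was as low as the OgaVav-Cre libraries and the other two wildtype libraries were above them all. The log2 fold change of Irs1, -1.18, had a 95% interval from -2.55 to 0.19, which spans from 0.171 to 1.14 times the wildtype level. It was -1.69 without OgaVav-Cre replicate 3 and -1.55 without wildtype replicate 2, with unadjusted p-values of 0.0347 and 0.0230 and Benjamini-Hochberg adjusted p-values of 0.319 and 0.656 in the edgeR quasi-likelihood test. In these fits 14.3 and 7.51% of all loci were below an unadjusted p of 0.05, and Irs1 was below it in 2 of 14 alternatives. Another locus on the opposite strand, ENSMUSG00000022591, overlaps Irs1 by 2822 bases and held 7, 2 and 6 and 16, 4 and 27 reads. The library kit is non-directional by its name and use of strand in counting is not stated, so reads of such partners cannot be told apart. Irs2 was at 29.2, 17.4 and 15.9 CPM in the OgaVav-Cre group and at 17.2, 26.4 and 22.0 CPM in wildtype libraries, and the genotypes overlapped.

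All 4 receptor and substrate genes had a negative log2 fold change, with a median of -0.27, and none passed the test. That of Irs2, -0.07, ranged from -0.39 without OgaVav-Cre replicate 1 to 0.09 without OgaVav-Cre replicate 3, while Igf1r, Insr and Irs1 kept their sign in all 14 alternatives. The lineage-positive marker sum was highest in OgaVav-Cre replicate 3 and wildtype replicate 3, and Irs1 was also highest in replicate 3 of each genotype. The part of those cells in the Irs1 values was not tested.

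The transcription factor TFEB, which mTORC1 keeps out of the nucleus, binds an E-box, and the promoters of the members were searched for its core CACGTG, which reads the same on both strands. RefSeq windows from 250 bases before to 50 bases after the start site, on GRCm38.p6, were found for 32 of the 37 members. The core was present for 5 of these genes, Irs1, Irs2, Rheb, Rragb and Rragc (15.6%), and for 8.09% of all 27025 genes with a window. All but 1 of the matches are shown within 60 bases, 5′ to 3′ on the strand of the gene, with the core in capitals, because they include both substrate genes and 2 of the 4 Rag genes.
Irs1, chr1:82291522-82291581, minus strand: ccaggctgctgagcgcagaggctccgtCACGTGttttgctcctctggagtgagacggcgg
Irs2, chr8:11008941-11009000, minus strand: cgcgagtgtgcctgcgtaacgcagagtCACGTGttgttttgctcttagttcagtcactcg
Rheb, chr5:24842425-24842484, minus strand: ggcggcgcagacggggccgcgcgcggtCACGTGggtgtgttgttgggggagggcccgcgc
Rragb, chrX:153139804-153139863, plus strand: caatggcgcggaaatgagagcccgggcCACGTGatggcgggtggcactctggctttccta
Rragb, chrX:153139895-153139954, plus strand: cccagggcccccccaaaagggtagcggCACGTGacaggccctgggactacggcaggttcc
Rragc, chr4:123917294-123917353, plus strand: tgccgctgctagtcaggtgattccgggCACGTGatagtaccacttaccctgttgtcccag
The core begins 115 bases before the start site in Irs1, 44 in Irs2, 96 in Rheb, 127 and 36 in Rragb and 112 in Rragc, and the match not shown, also in Rragb, begins 3 bases before the start site. The log2 fold changes of these 5 genes were -1.18, -0.07, 0.05, 0.33 and 0.13 in the order Irs1, Irs2, Rheb, Rragb and Rragc, without a common sign. A FOXO motif, GTAAACA on either strand, was present in the windows of Akt1 and Stk11, 6.25% of the members with a window against 4.05% of all genes. Both motifs are letters found in a sequence and no binding was measured.

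PI3K makes the membrane lipid that recruits PDK1 and AKT. Its catalytic subunit gene Pik3ca was at 81.3, 73.2 and 88.5 CPM in the OgaVav-Cre group and at 99.6, 88.9 and 90.3 CPM in wildtype libraries. The genotypes were barely apart, at 88.5 against 88.9 CPM for the nearest libraries. This gave a log2 fold change of -0.20 (95% interval -0.47 to 0.08). The blood-enriched catalytic subunit Pik3cd was at 159, 154 and 267 CPM and at 224, 185 and 209 CPM, with OgaVav-Cre replicate 3 above all others. The log2 fold change of Pik3cd was -0.09 (95% interval -0.61 to 0.43), and without that library it was -0.39, with an unadjusted p of 0.0283 and a Benjamini-Hochberg adjusted p of 0.307 in the edgeR quasi-likelihood test. Without OgaVav-Cre replicate 3, 14.3% of all loci were below an unadjusted p of 0.05 in edgeR. Pik3cd was below it in 1 of 14 alternatives. OgaVav-Cre replicate 3 also had the highest lineage-positive marker sum, 1895 CPM without TMM scaling. In the wildtype group, Pik3cd was highest in replicate 1 and that sum in replicate 3. The part of lineage-positive cells in the Pik3cd level was not tested.

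The regulatory subunit Pik3r1 and both AKT kinases varied little. Pik3r1 was between 194 and 216 CPM in the 6 libraries, Akt1 between 130.1 and 145 CPM and Akt2 between 41.6 and 48.5 CPM. Their log2 fold changes were 0.08, 0.07 and -0.03, and their 95% intervals stayed between -0.31 and 0.33. Under DESeq2's size factors all OgaVav-Cre libraries of Pik3r1 were above all wildtype ones, a scaling under which 17.7% of all loci did not overlap. Pdpk1, the gene of PDK1, ranged more widely, from 80.5 to 125 CPM, and was highest in OgaVav-Cre replicate 3. The Pdpk1 log2 fold change was -0.0049 with a 95% interval from -0.46 to 0.45.

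The genes of the mTOR complexes were close between genotypes. Mtor, the kinase of both complexes, was at 39.6, 51.0 and 47.3 CPM in the OgaVav-Cre group and at 53.9, 45.4 and 45.2 CPM in wildtype libraries, with the lowest and second highest values both in OgaVav-Cre. The log2 fold change was -0.07 (95% interval -0.40 to 0.26). Rptor, the subunit that defines mTORC1, had a log2 fold change of 0.04 (95% interval -0.27 to 0.34), and Mlst8, shared by both complexes, one of 0.0030 (95% interval -0.34 to 0.34). Rictor, which defines mTORC2, was at 65.7, 78.1 and 92.8 CPM and at 82.6, 91.6 and 95.4 CPM, so that 2 OgaVav-Cre libraries lay below the wildtype range and 1 inside it. Its log2 fold change of -0.19 had a 95% interval from -0.53 to 0.16.

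The inhibitory subunits Akt1s1 (PRAS40) and Deptor had log2 fold changes of -0.04 and -0.11. Akt1s1 was between 31.3 and 40.5 CPM and Deptor between 29.2 and 35.7 CPM, and both overlapped between genotypes. None of the 6 genes of this group separated the genotypes. Some of their reads may be of neighbors, since the same-strand locus LOC100505173 overlaps Deptor by 3719 bases with 50.2% as many reads, and 9930021D14Rik lies opposite Mlst8 with 1010 reads beside its 3744. In all, 27 of the 36 members overlap another listed locus, and for 9 the partner held at least 10% as many reads.

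Upstream of mTORC1, the TSC1 and TSC2 proteins form the complex that turns RHEB off. Tsc1 (chromosome 2, 28496748 to 28546687, plus strand, mm9) was at 46.7, 52.2 and 47.0 CPM in the 3 OgaVav-Cre libraries (replicates 1, 2 and 3) and at 58.5, 63.5 and 68.0 CPM in wildtype replicates 1, 2 and 3. All 3 OgaVav-Cre libraries were thus below all 3 wildtype libraries, with a gap from 52.2 to 58.5 CPM. The OgaVav-Cre level was 0.768 times the wildtype level (95% interval 0.638 to 0.924), a log2 fold change of -0.38 with a standard error of 0.12. The unadjusted p of the edgeR quasi-likelihood test was 0.0114 and the Benjamini-Hochberg adjusted p was 0.412, so Tsc1 did not pass. It stayed negative and below an unadjusted p of 0.05 in all 14 alternatives, with edgeR, DESeq2 or limma Benjamini-Hochberg adjusted p-values between 0.251 and 0.862. These alternatives reuse the same 6 libraries, and the share of all loci below 0.05 throughout was not counted. Gatsl2, Mitf, Prr5 and Ctsf, from the wider lists described below, were also below an unadjusted p of 0.05 in all 14. The one locus that overlaps Tsc1 held 31 reads over the 6 libraries.

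Tsc2, the partner of Tsc1, was at 53.7, 50.9 and 44.8 CPM in the OgaVav-Cre group and at 49.4, 51.4 and 60.6 CPM in wildtype libraries. The genotypes overlapped, and the log2 fold change was -0.11 (95% interval -0.42 to 0.20). Under library totals alone all OgaVav-Cre libraries of Tsc2 were below all wildtype ones, a scaling under which 18.7% of all loci did not overlap. The 3′ end of Tsc2 overlaps Pkd1 on the opposite strand by 699 bases, and Pkd1 held 12022 reads beside the 7204 of Tsc2. Reads of the shared bases cannot be told apart, which also limits the ratio of Tsc1 to Tsc2 given below. Rheb, the GTPase that activates mTORC1, was between 41.1 and 52.4 CPM, with a log2 fold change of 0.05 (95% interval -0.28 to 0.38).

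Ddit4 (REDD1), a stress-induced activator of the TSC complex, had the largest positive log2 fold change of the members, 0.46, and 1 library set it. The level was 19.3, 27.8 and 84.2 CPM in OgaVav-Cre replicates 1, 2 and 3 and 21.5, 35.7 and 38.4 CPM in wildtype replicates 1, 2 and 3. OgaVav-Cre replicate 3 was above all other libraries and OgaVav-Cre replicate 1 was below them all. The 95% interval ran from -0.75 to 1.66, and without OgaVav-Cre replicate 3 the log2 fold change was -0.43. The same library had the highest lineage-positive marker sum, and the part of those cells in the Ddit4 level was not tested.

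**Figure D3:**
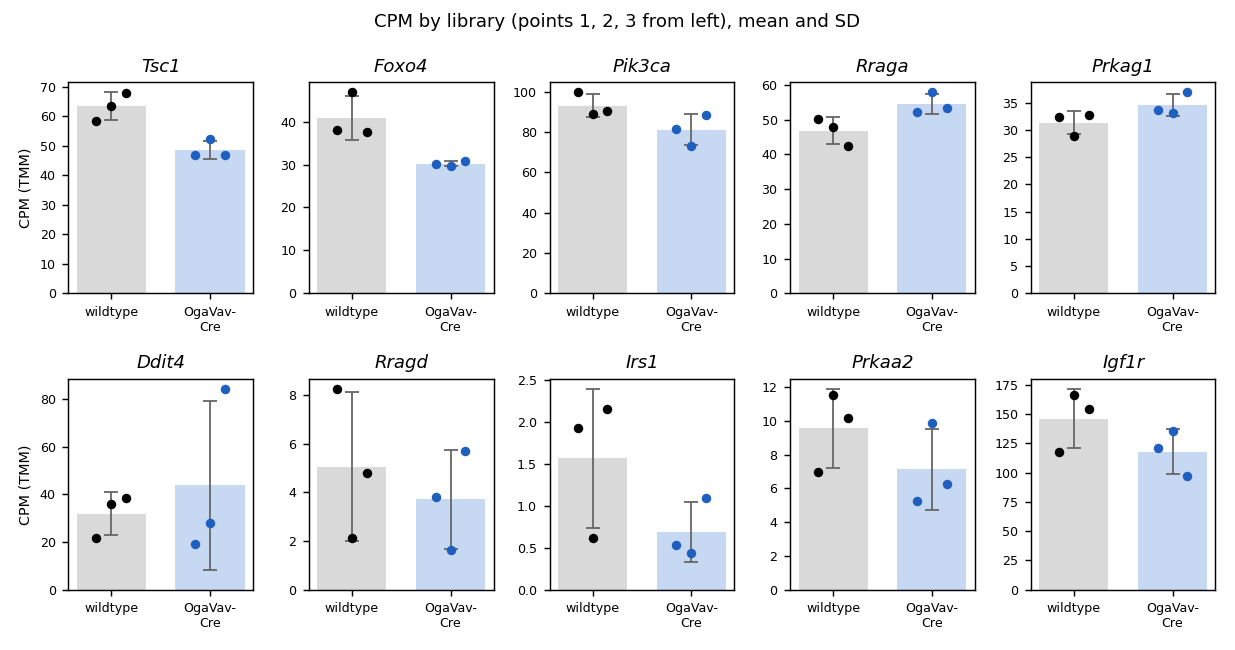
CPM of 10 genes by library (y axis, from 0 in each panel), for wildtype and OgaVav-Cre. Points are libraries 1, 2 and 3 from left to right, bars are means and lines are SD of 3 libraries. The top row shows the 5 genes whose genotypes do not overlap and the bottom row the genes with wide intervals and Igf1r, with OgaVav-Cre replicate 3 at 84.2 CPM for Ddit4.

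The Rag GTPases act as pairs of RagA or RagB with RagC or RagD and recruit mTORC1 to the lysosome. Rraga (chromosome 4, 86221577 to 86223189, plus strand, mm9) was at 52.1, 57.8 and 53.4 CPM in the OgaVav-Cre group and at 50.1, 47.9 and 42.4 CPM in wildtype libraries. All OgaVav-Cre values were higher, the nearest being 52.1 against 50.1 CPM. Rraga had a log2 fold change of 0.22 (95% interval -0.05 to 0.49). Rragc was at 55.9, 52.0 and 60.6 CPM and at 53.3, 50.3 and 50.2 CPM, with 1 wildtype library inside the OgaVav-Cre range, and had a log2 fold change of 0.13 (95% interval -0.13 to 0.39).

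The scarcer forms were less precise. Rragb was at 11.5, 13.4 and 8.98 CPM in the OgaVav-Cre group and at 9.47, 9.60 and 7.83 CPM in wildtype libraries, with a log2 fold change of 0.33 (95% interval -0.16 to 0.82). Rragd was at 3.81, 1.62 and 5.69 CPM and at 8.25, 2.13 and 4.78 CPM, so that the highest library had 5.08 times the CPM of the lowest, the widest span of any member. The log2 fold change of Rragd, -0.45, had a 95% interval from -1.78 to 0.89 and was 0.10 without wildtype replicate 1, its highest library. Rraga, Rragb and Rragc had positive values in all 14 alternatives, and 3 of 4 Rag genes were positive and 1 negative. None passed the test.

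LKB1, encoded by Stk11, phosphorylates the catalytic subunit of AMPK, which binds a beta and a gamma subunit. Stk11 was between 93.5 and 116 CPM in the 6 libraries and had a log2 fold change of -0.03 (95% interval -0.34 to 0.29). The catalytic subunit gene Prkaa1 varied least of all members, from 52.5 to 56.3 CPM, a ratio of 1.07 between the highest and the lowest library. For Prkaa1 the log2 fold change was 0.0022 with a 95% interval from -0.24 to 0.24. The beta subunit gene Prkab1 had a mean of 39.2 CPM in each genotype, with SDs of 1.79 and 4.53 (n = 3 each).

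The other catalytic subunit gene, Prkaa2, was at 5.23, 9.85 and 6.28 CPM in the OgaVav-Cre group and at 6.98, 11.5 and 10.2 CPM in wildtype libraries. The genotypes overlapped and the log2 fold change of -0.42 had a 95% interval from -1.13 to 0.28. Without OgaVav-Cre replicate 2 it was -0.73, with an unadjusted p of 0.0468 and a Benjamini-Hochberg adjusted p of 0.652 in the edgeR quasi-likelihood test. In that fit 7.67% of all loci were below an unadjusted p of 0.05, and Prkaa2 was below it in 1 of 14 alternatives. The gamma subunit gene Prkag1 was at 33.7, 33.1 and 36.9 CPM and at 32.3, 28.9 and 32.8 CPM, higher in every OgaVav-Cre library and nearest at 33.1 against 32.8 CPM. A log2 fold change of 0.14 resulted (95% interval -0.15 to 0.43). Another locus, B130046B21Rik, overlaps Prkag1 by 6635 bases on the opposite strand and held 84.9% as many reads as Prkag1.

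Among the targets of mTORC1 and AKT, the FOXO transcription factors hold blood stem cells in quiescence and protect them from oxidative stress. Foxo4 (chromosome X, 98449867 to 98456212, plus strand, mm9) was at 30.2, 29.6 and 30.8 CPM in the 3 OgaVav-Cre libraries (replicates 1, 2 and 3) and at 38.0, 46.8 and 37.6 CPM in wildtype replicates 1, 2 and 3. The OgaVav-Cre libraries lay close together, from 29.6 to 30.8 CPM, and all below the wildtype libraries. The OgaVav-Cre level was 0.740 times the wildtype level (95% interval 0.596 to 0.919), a log2 fold change of -0.43 with a standard error of 0.13. The edgeR quasi-likelihood test gave an unadjusted p of 0.0128 and a Benjamini-Hochberg adjusted p of 0.412. The unadjusted p was below 0.05 in 13 of 14 alternatives and 0.0582 without wildtype replicate 2, the library with the highest level, where the log2 fold change was -0.32. No other listed locus overlaps Foxo4.

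Foxo3, the more abundant of the pair at 19.1 RPKM against 6.34 RPKM for Foxo4, was at 189.9, 234 and 160.5 CPM in the OgaVav-Cre group and at 182, 202 and 223 CPM in the wildtype group. The highest and the lowest value were both in OgaVav-Cre, and the log2 fold change was -0.05 (95% interval -0.44 to 0.34). Ulk1, the kinase that starts autophagy and is inhibited by mTORC1, was at 48.9, 54.8 and 36.9 CPM and at 47.1, 64.3 and 57.7 CPM. The genotypes overlapped, with a log2 fold change of -0.27 (95% interval -0.69 to 0.16).

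The translation repressor gene Eif4ebp2, the most abundant member, had a mean of 278 CPM in each genotype, with SDs of 17.6 and 30.8 (n = 3 each) and a log2 fold change of 0.00080 (95% interval -0.31 to 0.31). Eif4ebp1, of the same family, was between 18.4 and 30.1 CPM, both extremes in OgaVav-Cre. The S6 kinase gene Rps6kb1 was at 67.5, 58.9 and 64.7 CPM in the OgaVav-Cre group and at 71.9, 70.0 and 67.0 CPM in wildtype libraries, overlapping at 67.5 and 67.0 CPM. Its libraries did not overlap as RPKM, where OgaVav-Cre was at 3.68 ± 0.202 (SD, n = 3) and wildtype at 4.22 ± 0.136 (SD, n = 3). Rps6kb2, the other S6 kinase gene, was between 176 and 199 CPM. Ptprcap, a lymphocyte gene, lies whole inside it on the opposite strand with 79.6% as many reads, and reads of these genes cannot be told apart.

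Tcfeb, the older symbol of Tfeb, was at 17.3, 11.6 and 31.4 CPM in the OgaVav-Cre group and at 16.3, 11.2 and 19.9 CPM in wildtype libraries. OgaVav-Cre replicate 3 was highest here too. The log2 fold change of 0.35 had a 95% interval from -0.52 to 1.21 and was -0.13 without that library.

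Related genes were also compared as ratios of RPKM within a library, which do not depend on how libraries are scaled. Of 12 pairs, 11 overlapped between genotypes, and no pair had a p below 0.1, the smallest that a two-sided exact permutation test of 3 against 3 libraries can give. The ratio of Tsc1 to Tsc2 was 0.476, 0.562 and 0.575 in the OgaVav-Cre group and 0.649, 0.678 and 0.615 in the wildtype group, lower in all OgaVav-Cre libraries. Its log2 difference was -0.27 (exact permutation p = 0.1, Benjamini-Hochberg adjusted p over the 12 pairs 0.514).

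The ratios show which form prevailed. Akt1 was 5.69 ± 0.315 (SD, n = 3) times Akt2 in OgaVav-Cre and 5.31 ± 0.433 (SD, n = 3) times in wildtype cells. Prkaa1 was 14.1 ± 3.98 (SD, n = 3) and 10.3 ± 2.82 (SD, n = 3) times Prkaa2, and Rraga was 8.27 ± 1.48 (SD, n = 3) and 8.76 ± 0.366 (SD, n = 3) times Rragb. Irs2 exceeded Irs1 by between 23.3 and 143 times over the 6 libraries. Rptor to Rictor, the subunits that define mTORC1 and mTORC2, was 0.867 ± 0.0725 (SD, n = 3) and 0.741 ± 0.124 (SD, n = 3). Foxo3 was 3.50 ± 0.733 (SD, n = 3) and 2.71 ± 0.447 (SD, n = 3) times Foxo4.

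**Figure D4:**
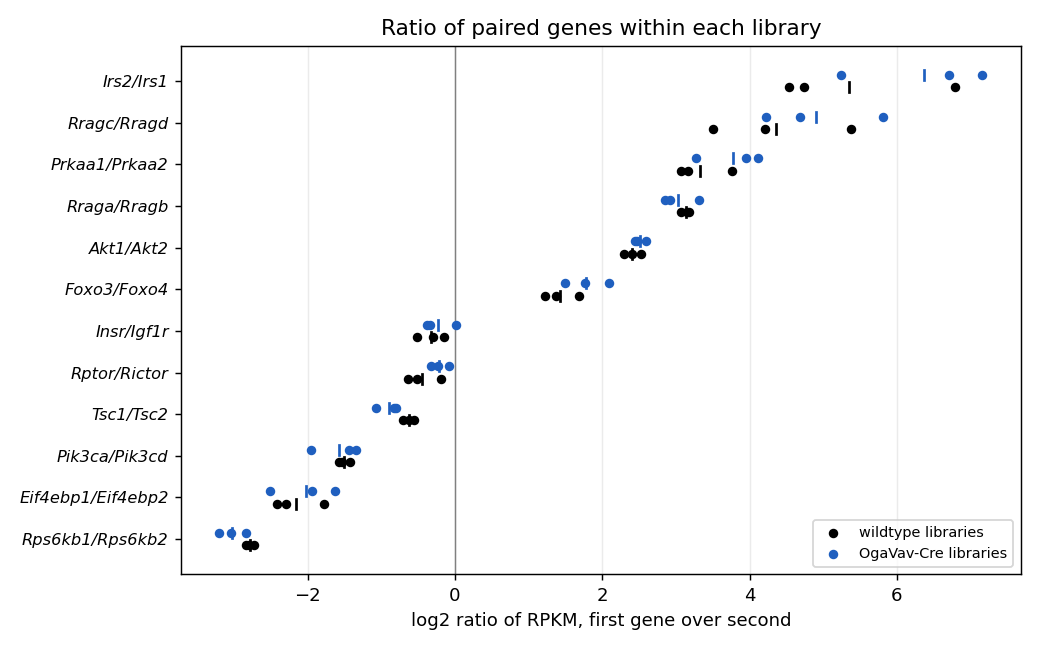
Log2 ratio of RPKM of related genes within each library (x axis), first gene over second, for 12 pairs (y axis). Points are libraries, black for 3 wildtype and blue for 3 OgaVav-Cre, and short vertical lines are means. Tsc1/Tsc2 is the pair whose colors do not overlap, and Irs2/Irs1 and Rragc/Rragd spread most.

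A wider list of 88 other pathway genes (further subunits, regulators and family members) was treated in the same way. Of 83 tested, 0 passed both cutoffs in edgeR, and 6 had an unadjusted p below 0.05, 1 higher and 5 lower. This is 7.23% of the list, below the 10.6% of all loci, and the median log2 fold change of the list was -0.04. Gatsl2, a relative of the arginine sensor of the Rag pathway, was at 15.1 ± 2.86 CPM (SD, n = 3) after Oga deletion and at 26.6 ± 2.26 CPM (SD, n = 3) in wildtype cells, without overlap. Its log2 fold change was -0.81 (edgeR quasi-likelihood test, Benjamini-Hochberg adjusted p = 0.369), and DESeq2's Wald test gave an adjusted p of 0.0324, which passes that cutoff but not the one on the fold change. Mitf, a transcription factor of the Tfeb family, was at 4.62 ± 0.411 CPM (SD, n = 3) and 7.78 ± 0.331 CPM (SD, n = 3), with a log2 fold change of -0.75. Prr5, a subunit of mTORC2, was at 44.1, 27.6 and 36.8 CPM in the OgaVav-Cre group and at 23.1, 23.3 and 22.6 CPM in wildtype libraries, with a log2 fold change of 0.65. Flcn, which acts on RagC, and Stradb, a partner of LKB1, had log2 fold changes of -0.32 and -0.37.

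Genes known as targets of FOXO factors and of TFEB were read as lists downstream of the members. Of 21 FOXO targets tested, 0 passed the cutoffs in edgeR, beside 0.0318% of all loci. An unadjusted p below 0.05 in edgeR was found for 0 of them, beside 10.6% of all loci. Of these targets 10 were higher and 11 lower, and the median log2 fold change was -0.12. Rag1, a recombinase gene of early lymphoid cells, had the smallest p of them, with a log2 fold change of -1.15 (95% interval -2.40 to 0.09). Klf4, Prdx3, Cdkn1b and Sepp1 followed with log2 fold changes of -0.82, 0.23, -0.27 and -0.23. Of 25 TFEB targets, which are mostly lysosomal genes, 0 passed both cutoffs in edgeR, 17 were higher and 8 lower, and the median was 0.08. Ctsf, a lysosomal cysteine protease, was the one (4% of the list, beside 10.6% of all loci) with an unadjusted p below 0.05 in edgeR. Its means were 5.46 ± 2.20 CPM (SD, n = 3) after Oga deletion and 12.2 ± 3.41 CPM (SD, n = 3) in wildtype cells. The Ctsf log2 fold change of -1.16 had a Benjamini-Hochberg adjusted p of 0.412 in the edgeR quasi-likelihood test. Naglu, Tpp1, Mcoln1 and Uvrag, next by p, had log2 fold changes of -0.34, -0.20, -0.31 and 0.31.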

How the data were processed

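Poly(A) RNA of LSK cells was sequenced by the authors as single-end reads, aligned to mm9 and summarized per locus with Genomatix. CASAVA 1.8.2 is named in the submitters' processing notes, and the aligner, counting rule and annotation version are not given in the sources used here. The deposited table holds raw counts of reads per locus and library, RPKM that the authors derived from the counts, and the locus length in bases. Its columns of the authors' own comparison (log2 fold change, p-value and adjusted p-value) and of normalized expression were not used.

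Counts were tested with edgeR 4.0.16 in R 4.3.3 (TMM, filterByExpr with a minimum count of 10, glmQLFit and glmQLFTest, genotype as the single term) on all loci, and p-values were adjusted over the 22032 loci tested. Intervals of 95% use the moderated degrees of freedom. The alternatives were DESeq2 1.42.0, limma-voom (limma 3.58.1), other scalings and filters, the immunoglobulin share as a covariate, a replicate block and each library left out. RPKM ratios were tested by exact two-sided permutation with scipy 1.17.1 on Python 3.11.15, pandas 2.3.3 and numpy 2.4.6, and figures were drawn with matplotlib 3.10.9. The edgeR step was tested on simulated data.

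Groups and replicate numbers were taken from the sample titles, and 1 library stands for 1 mouse. The members and lists were chosen with earlier results of these data known. Every member is accounted for, and from each other list those past both cutoffs and up to 5 with the smallest unadjusted p are named. Library totals of 19318056 to 27064389 reads make a floor of 3 reads equal to between 0.111 and 0.155 CPM before TMM scaling. This floor and the read numbers cover counting error only. Some listed symbols are older ones, matched through a RefSeq table of synonyms.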

Additional observations from a re-analysis of the deposited data

How the results depend on the processing

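In all 14 alternatives 0 of the 36 members passed both cutoffs, and 0 passed the adjusted p alone, the smallest adjusted p being 0.251 (Tsc1 in edgeR without wildtype replicate 1). Of 504 member values in the alternatives, 59 had the other sign and 17 members kept their sign throughout. The number of members with an unadjusted p below 0.05 was 2 or 3 in the alternatives with all libraries, where between 6.72 and 12.4% of all loci were. With a library left out it was between 2 and 4, with 4 (11.1%) both without OgaVav-Cre replicate 3 and without wildtype replicate 1, beside 14.3 and 14.5% of all loci. Members without overlap were 4 under library totals (18.7% of all loci), namely Tsc1, Foxo4, Tsc2 and Rps6kb1. The number was 5 under DESeq2's size factors (17.7%), namely Tsc1, Foxo4, Rraga, Prkag1 and Pik3r1. With a library left out the number was between 7 and 12 (19.4 to 33.3% of the members and 23.3 to 35.9% of all loci), where fewer libraries overlap less often by construction. Library totals moved the median log2 fold change of all loci to -0.11 and that of the members to -0.16. Correlations of deviations between libraries of the same replicate number were -0.09, 0.31 and 0.38 for numbers 1, 2 and 3. Between libraries of unlike numbers they ran from -0.44 to 0.26. With 3 libraries per genotype these values cannot settle whether the numbers pair the mice. With the replicate number as a block, 0 members passed and 2 were below an unadjusted p of 0.05, and Mlst8 turned to -0.00037. For other signs the cause was not tested. Under library totals log2 fold changes were -0.080 for Rptor, -0.12 for Mlst8, -0.052 for Akt1, -0.071 for Rheb, -0.040 for Pik3r1, -0.11 for Prkaa1, -0.12 for Prkab1, -0.12 for Eif4ebp2 and -0.0075 for Rps6kb2. With at least 10 reads in every library they were -0.0032 for Mlst8, -0.0041 for Prkaa1, -0.0058 for Prkab1 and -0.0056 for Eif4ebp2. Pdpk1 was 0.010 with DESeq2's size factors, 0.0025 without a filter, 0.012 in DESeq2 and 0.14 with the immunoglobulin share, which also gave 0.037 for Pik3cd and 0.0012 for Stk11. Mlst8 was -0.0055 in limma-voom.

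With each library left out in turn, log2 fold changes crossed 0 within -0.15 to 0.031 for Mtor, -0.034 to 0.11 for Rptor, -0.054 to 0.0999 for Mlst8, -0.083 to 0.024 for Akt2, -0.14 to 0.050 for Akt1s1, -0.035 to 0.14 for Rheb, -0.21 to 0.11 for Pdpk1, -0.39 to 0.057 for Pik3cd and -0.39 to 0.094 for Irs2. Further ranges were -0.099 to 0.066 for Stk11, -0.023 to 0.032 for Prkaa1, -0.052 to 0.099 for Prkab1, -0.90 to 0.10 for Rragd, -0.43 to 0.81 for Ddit4, -0.083 to 0.056 for Eif4ebp2, -0.20 to 0.072 for Foxo3 and -0.13 to 0.63 for Tcfeb. Log2 ratio differences ran from -0.043 to 0.17 for Insr/Igf1r, from -0.065 to 0.37 for Eif4ebp1/Eif4ebp2 and from -0.19 to 0.12 for Pik3ca/Pik3cd. Counts of 11 to 51 reads limit what Irs1 can show.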
